A study of Mus musculus with 15 samples.

Results

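The 37 genes described here code for enzymes that make or break down amino acids. They were taken by gene symbol from a deposited RNA sequencing table of 23284 genes, which held all 37. The table covers 15 kidney libraries of wild-type (WT) mice in 3 groups of 5, given D-alanine (D-ala), L-alanine (L-ala) or vehicle, all at 2 h. These are the mirror-image forms of alanine. The question the groups address is what D-alanine does to kidney transcripts, with L-alanine as the other isomer. The labels used here state no dose, route, vehicle make-up, strain, sex or age, and no matched dose is claimed. The labels do not say that the libraries came from separate animals, so p-values measure only the spread between these libraries, which may be technical. Values are FPKM, fragment counts scaled by transcript length and library depth, as deposited by the authors. The levels of different genes can therefore be compared per length.

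As background, the kidney takes up filtered amino acids in the proximal tubule and is a main site of serine synthesis, of arginine synthesis from citrulline and of the first step of creatine synthesis. Proximal tubule cells also take up glutamine, release ammonia and carry the enzymes that degrade glycine, proline, tyrosine and the branched-chain amino acids. L-alanine is used mainly by alanine aminotransferase (Gpt), and D-alanine is oxidised by D-amino acid oxidase (Dao). Methionine adenosyltransferase makes S-adenosylmethionine, the methyl donor of most methylation reactions.

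The enzymes spanned a wide range of levels. In vehicle kidney 20 of the 37 averaged at least 100 FPKM, 13 lay between 10 and 100 FPKM, 2 lay between 1 and 10 FPKM and 2 lay below 1 FPKM. The highest was Gatm, which forms guanidinoacetate for creatine, at 449 ± 54.5 FPKM in vehicle kidney (SD, n = 5). The tyrosine breakdown enzymes Fah and Hgd followed at 391 ± 25.2 and 381 ± 18.6 FPKM (SD, n = 5 each), a gap smaller than their spread. At the low end stood Phgdh, which starts serine synthesis, at 2.77 ± 0.462 FPKM, and the mitochondrial arginase Arg2 at 6.25 ± 1.30 FPKM. Pycr1, a proline-forming reductase, lay between 0 and 0.138 FPKM over the 15 libraries. Aldh18a1, which makes the proline precursor pyrroline-5-carboxylate from glutamate, lay between 0.293 and 1.01 FPKM. Neither reached 1 FPKM in 5 libraries, so neither was tested, while the other 35 were at 1 FPKM or more in every library. The spread between vehicle libraries was small for most enzymes, with a median coefficient of variation of 8.11% over the 35. It ran from 1.79% for Gstz1 to 26.2% for Gldc.

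**Figure D1:**
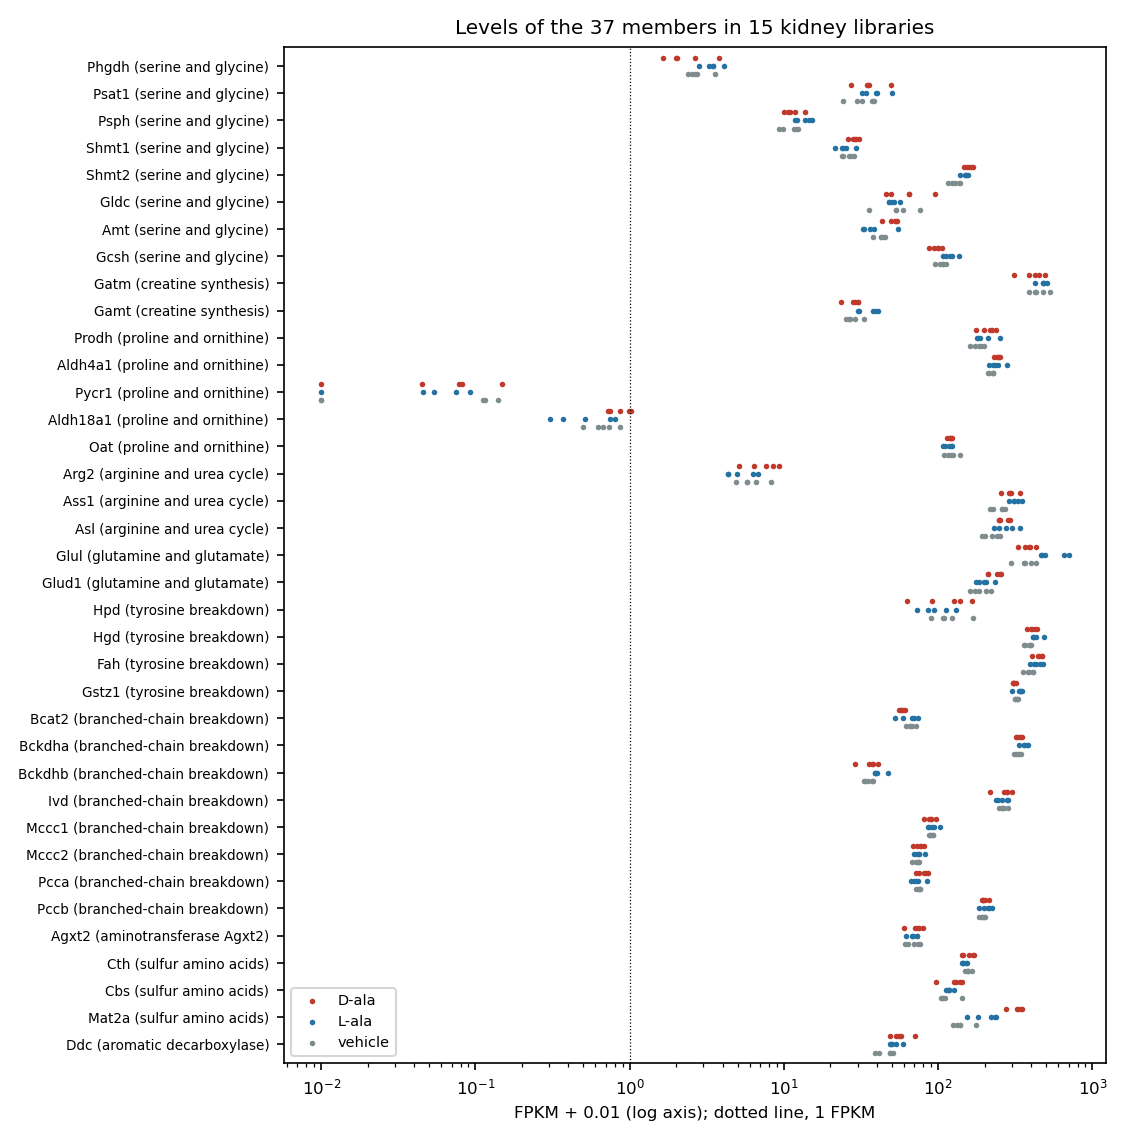
FPKM plus 0.01 (log axis) of each of the 37 enzymes, with its list in brackets, in the D-ala, L-ala and vehicle libraries (5 points per group, top to bottom within a gene). Of the 37, 20 average at least 100 FPKM in vehicle kidney, and Pycr1 and Aldh18a1 lie at the left end, at or below 1.01 FPKM in every library.

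The depth ranges of the groups overlapped, with the shallowest libraries in the vehicle and L-ala groups, and kidney markers were present throughout. Recovered depth ran from 9.89 to 10.5 M reads in D-ala libraries, 8.80 to 10.95 M in L-ala libraries and 7.53 to 10.2 M in vehicle libraries. The 8 markers of the proximal tubule segments S1 and S2 summed to 4076 to 4851 FPKM in D-ala, 4104 to 4828 FPKM in L-ala and 3725 to 4102 FPKM in vehicle libraries. In L-ala against vehicle, their mean log2 level was 0.17 higher (exact permutation test, two-sided, p = 0.0159, n = 5 each), where the smallest p possible is 0.00794. Neutrophil markers summed to 13.1 to 34.98 FPKM in L-ala, 0.676 to 7.72 FPKM in vehicle and 2.38 to 11.3 FPKM in D-ala libraries. The L-ala and vehicle sums did not overlap. The test was run on the mean log2 level of a list, not on the sums. For neutrophil markers that level was 0.95 higher in L-ala than in vehicle (exact p = 0.00794). Red blood cell markers summed to 269 to 752 FPKM in L-ala, 24.9 to 262 FPKM in vehicle and 43.7 to 464 FPKM in D-ala libraries. Their mean log2 level was 1.35 higher in L-ala than in vehicle (exact p = 0.0238). In D-ala against L-ala, mean log2 levels differed by -0.84 for neutrophil markers (exact p = 0.00794) and -1.25 for red blood cell markers (exact p = 0.0238). Macrophage and dendritic cell markers summed to 109 to 170.4 FPKM in D-ala and 150.5 to 263 FPKM in vehicle libraries. Their mean log2 level in D-ala against vehicle differed by -0.49 (exact p = 0.0159). Also in L-ala against vehicle, mean log2 marker levels were different by -0.31 for the thick ascending limb (exact p = 0.0159), -0.52 for endothelium (exact p = 0.0238) and 0.12 for distal tubule and collecting duct (exact p = 0.0159). Fibroblast and pericyte markers differed by -0.36 in D-ala against vehicle (exact p = 0.0317). Every marker list was tested in each of the 3 comparisons. The exact p-values are not adjusted for this number of tests, and only those under 0.05 are quoted. No listed marker was at 0 in every library. L-ala replicate 5 stood apart, with a mean correlation of -0.118 with its own group's deviations. The range was 0.119 to 0.138 in the other L-ala libraries, 0.0709 to 0.182 among D-ala and 0.117 to 0.288 among vehicle libraries. What these markers contribute to the enzyme values was not tested. In whole kidney RNA, fewer cells of a type and less RNA per cell cannot be told apart.

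In D-ala against vehicle kidney, Mat2a, the catalytic subunit of methionine adenosyltransferase, rose to 2.30 times its vehicle level. Shmt2, the mitochondrial enzyme that splits serine into glycine and a one-carbon unit, rose 1.23-fold, and the calls of Ddc, Glud1 and Ass1 were of similar size, at 1.20- to 1.25-fold. Of the 35 tested enzymes, 5 were called higher, 0 lower and 30 not called. A call means a Benjamini-Hochberg adjusted p under 0.05 in limma, over all 11781 genes tested. Over all tested genes 6.53% were called higher and 4.92% lower. At an unadjusted p under 0.05, 10 enzymes were higher and 1, Bcat2, was lower, while 26.5% of all tested genes passed that threshold. The median log2 fold change was 0.06 over the enzymes and 0.00 over all tested genes. Among the 8037 genes averaging at least 5 FPKM, fitted alone, the median was 0.01, with 663 called higher and 399 lower. In 3 enzymes, Mat2a, Shmt2 and the proline breakdown enzyme Aldh4a1, every D-ala library lay above every vehicle library, as it did in 6.12% of all tested genes. In 1, Bcat2, every D-ala library lay below every vehicle library, as in 4.76% of all tested genes. With quantile normalization of the log2 values the split of calls was 3 higher and 3 lower (Gcsh, Gstz1 and Bcat2), and the share of all calls that were higher was 46.95% in place of 57.0%. The count of enzymes called higher was 2 without D-ala replicate 1 or vehicle replicate 4, and 3 without any 1 of D-ala replicates 2 and 4, L-ala replicates 1 and 3 or vehicle replicates 1 and 5. Without L-ala replicate 5 it was 6, with 1 lower.

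In L-ala against vehicle kidney, the largest change among the enzymes was that of Glul, glutamine synthetase, which rose 1.49-fold. Mat2a rose 1.44-fold, the arginine-forming enzymes Ass1 and Asl rose 1.29- and 1.25-fold, and Gamt, which methylates guanidinoacetate to creatine, rose 1.26-fold. Of the 35 enzymes, 6 were called higher, 0 lower and 29 not called by limma, with Shmt2 the sixth. Over all tested genes 6.48% were called higher and 4.53% lower. At an unadjusted p under 0.05, 12 enzymes were higher and 0 lower, while 30.5% of all tested genes passed that threshold. The median log2 fold change was 0.09 over the enzymes and 0.01 over all tested genes. Most of the enzymes are well expressed, and all tested genes include many low ones. Among the 8037 genes averaging at least 5 FPKM, fitted alone, the median was 0.04, with 813 called higher and 300 lower. In 4 enzymes, Ass1, Bckdhb, Glul and Hgd, every L-ala library lay above every vehicle library, as in 4.01% of all tested genes, and in 0 did every one lie below, as in 3.23% of all tested genes. With quantile normalization 0 were called higher and 2, Oat and Cth, lower, and the share of all calls that were higher was 40.7% in place of 58.8%. Without the 3 libraries of lowest depth (vehicle replicate 1 and L-ala replicates 4 and 5) 1 enzyme, Ass1, was called higher. The count was 3 without any 1 of L-ala replicates 1, 3 and 4 or vehicle replicates 1 and 4. Without L-ala replicate 5 alone, 8 were called higher and 1, Amt, lower (-0.27, adjusted p = 0.0193).

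Between the isomers, Mat2a was 1.60-fold higher in D-ala than in L-ala kidney, and Amt, a component of the glycine cleavage system, was 1.31-fold higher. Glul, Gamt and Gcsh were lower in D-ala than in L-ala kidney, at 0.695, 0.794 and 0.817 times the L-ala level. So 2 of 35 enzymes were called higher and 3 lower, while 30 were not called. Over all tested genes 7.01% were called higher and 6.66% lower. Every D-ala library lay above every L-ala library in 1 enzyme, Mat2a, as in 5.08% of all tested genes, and below in 2, Gcsh and Glul, as in 4.02% of all tested genes. The median log2 fold change was 0.02 over the enzymes and -0.01 over all tested genes. Among the 8037 genes averaging at least 5 FPKM, fitted alone, the median was -0.03, with 549 called higher and 757 lower. With quantile normalization 3 were called higher and 1 lower, and the share of all calls that were higher was 56.5% in place of 51.3%. The call of Amt was lost without any 1 of D-ala replicates 1 to 4 or L-ala replicates 1 to 4, which left 1 enzyme, Mat2a, called higher, and without L-ala replicate 5 the counts were 4 and 6, with Shmt1 and Pcca added to the higher and Gstz1, Bcat2 and Bckdha to the lower ones. Both comparisons against vehicle use the same 5 vehicle libraries, so their values are given side by side and are not independent.

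**Figure D2:**
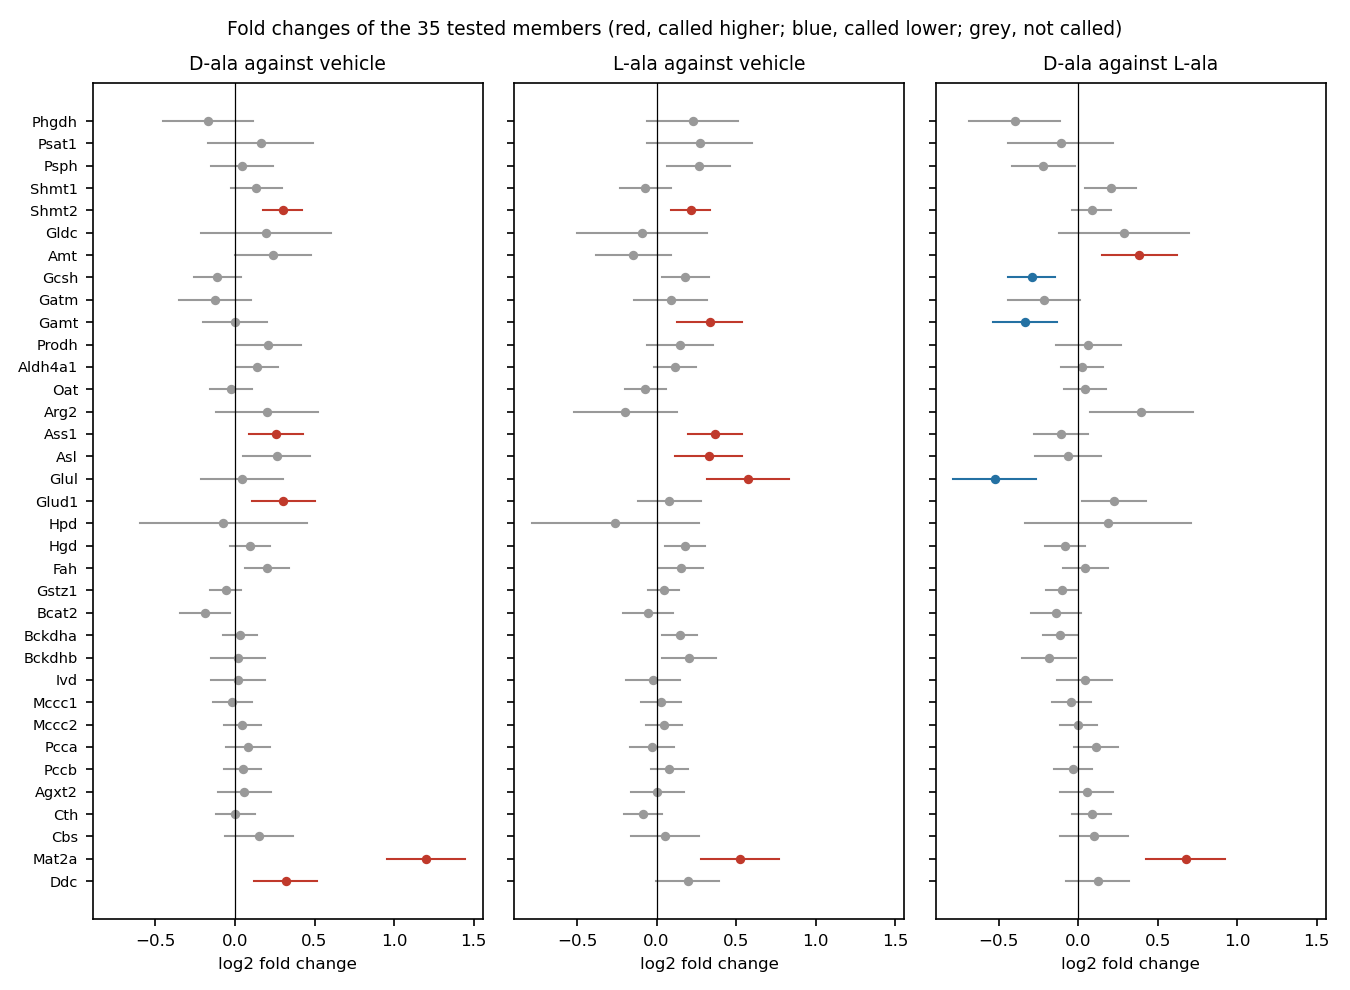
Log2 fold change of log2(FPKM + 1) for the 35 tested enzymes in the 3 comparisons (D-ala or L-ala against vehicle, then D-ala against L-ala), with 95% intervals from limma (lines). Mat2a stands furthest to the right in D-ala against vehicle, at 1.20, and Glul is at 0.57 in L-ala against vehicle and at -0.53 in D-ala against L-ala.

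Mat2a carried the largest difference of the set. It was at 327, 352, 275, 344 and 326 FPKM in D-ala libraries, 221, 180.3, 155, 232 and 237 FPKM in L-ala libraries and 125, 138, 175, 137 and 132 FPKM in vehicle libraries. All 5 D-ala libraries lay above all other libraries, and the L-ala libraries overlapped the vehicle libraries only through L-ala replicate 3 and vehicle replicate 3. The log2 fold change was 1.20 in D-ala against vehicle (95% interval 0.95 to 1.44, limma adjusted p = 1.1e-05) and 0.68 in D-ala against L-ala (0.43 to 0.92, adjusted p = 0.00242). Both calls held in all 25 alternative settings tried. Against vehicle, L-ala gave a log2 fold change of 0.52 (0.28 to 0.77, adjusted p = 0.0148). That call was lost with quantile normalization (0.35, adjusted p = 0.102) and with the 3 shallowest libraries left out (0.34, adjusted p = 0.0984). The partner gene Mat2b, the regulatory subunit of the same enzyme, was not called, at a log2 fold change of -0.09 in D-ala against vehicle (-0.19 to 0.02). Mat2a lies at chr6:72432799-72439558 on the minus strand (GENCODE M21, GRCm38), and 11.3% of its exon bases are shared with Particl, a transcript on the opposite strand. No source used here says whether counting was by strand, and reads of Mat2a and Particl cannot be told apart without it.

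Cbs and Cth, the other sulfur amino acid enzymes of the set, did not pass the test in any comparison. Cbs, which joins homocysteine and serine into cystathionine, averaged 127 ± 18.5 FPKM in D-ala, 118 ± 5.39 FPKM in L-ala and 114 ± 16.3 FPKM in vehicle kidney (SD, n = 5 each). Cth, which splits cystathionine to cysteine, averaged 157 ± 12.996, 147 ± 4.69 and 156 ± 6.70 FPKM in D-ala, L-ala and vehicle kidney. The 95% intervals of their log2 fold changes in D-ala against vehicle were -0.07 to 0.36 for Cbs and -0.12 to 0.12 for Cth. With quantile normalization Cth was called lower in L-ala against vehicle (-0.26, adjusted p = 0.0354), against -0.08 without it. Among 19 other tested sulfur amino acid genes, 3 were called higher and 0 lower in D-ala against vehicle. The all-gene shares there were 6.53% higher and 4.92% lower. Ethe1, the mitochondrial persulfide dioxygenase, averaged 125 ± 4.75 FPKM in D-ala and 79.4 ± 12.2 FPKM in vehicle kidney (log2 fold change 0.66, adjusted p = 0.000207). Under L-ala 2 of the 19 were called higher and 1 lower against vehicle, with Ethe1 at 0.43 (adjusted p = 0.0112) and glutathione synthetase Gss at 0.19 (adjusted p = 0.0225) higher. The all-gene shares there were 6.48% higher and 4.53% lower. Gclc, the catalytic subunit of the enzyme that starts glutathione synthesis, averaged 104 ± 23.9 FPKM in D-ala and 63.0 ± 14.6 FPKM in L-ala kidney (0.72, adjusted p = 0.0167).

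Promoter sequences are shown for Mat2a, which changed most, and for Glul, called in both comparisons that include L-ala. That of Ass1, called in both comparisons against vehicle, is also shown. Gamt was called in the same comparisons as Glul, and Shmt2 in the same as Ass1, and theirs are not shown. Each sequence shown is the 300 bases from 250 before to 50 after the start site in RefSeq (GRCm38.p6), written 5′ to 3′ on the gene's strand. They are chr6:72439507-72439806 (minus strand) for Mat2a, chr1:153899679-153899978 (plus strand) for Glul and chr2:31470020-31470319 (plus strand) for Ass1. Capitals mark 4 short elements on either strand: the letters CCAAT, then the GC-rich GGGCGG, the start-site element TATAAA and the E-box CACGTG. They were added to the search after the values were seen.
Mat2a: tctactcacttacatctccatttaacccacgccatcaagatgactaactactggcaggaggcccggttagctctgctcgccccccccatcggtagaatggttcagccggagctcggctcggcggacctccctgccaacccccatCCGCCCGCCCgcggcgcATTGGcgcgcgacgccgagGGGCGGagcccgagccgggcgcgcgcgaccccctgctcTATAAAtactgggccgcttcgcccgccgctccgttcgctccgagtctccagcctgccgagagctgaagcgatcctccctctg
Glul: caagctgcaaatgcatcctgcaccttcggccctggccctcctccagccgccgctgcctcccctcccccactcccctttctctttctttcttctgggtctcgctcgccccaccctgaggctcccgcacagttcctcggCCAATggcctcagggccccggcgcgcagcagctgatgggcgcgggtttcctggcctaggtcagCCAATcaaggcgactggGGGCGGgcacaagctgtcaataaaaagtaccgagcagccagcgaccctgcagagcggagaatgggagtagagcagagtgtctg
Ass1: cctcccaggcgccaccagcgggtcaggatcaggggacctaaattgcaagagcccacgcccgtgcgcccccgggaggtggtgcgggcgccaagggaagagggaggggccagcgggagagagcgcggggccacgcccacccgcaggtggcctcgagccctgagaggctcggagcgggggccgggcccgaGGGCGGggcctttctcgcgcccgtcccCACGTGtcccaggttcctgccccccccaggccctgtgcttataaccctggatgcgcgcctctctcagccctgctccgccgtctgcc
In Mat2a, TATAAA begins 32 bases before the start site, and GGGCGG occurs 3 times over both strands, with 2 of these on the minus strand sharing 2 bases. Glul holds CCAAT at 113 and 50 bases before the start and GGGCGG at 33, and Ass1 holds GGGCGG at 63 and CACGTG at 36 bases before it. GC content was 67.0% in the Mat2a window, 64.3% in that of Glul and 74.0% in that of Ass1. RefSeq windows matched 34 of the 37 enzymes, with 41 start sites. CCAAT was in 25 of these 41 windows (61.0%) and in 37.4% of all 32851 windows, and GGGCGG was in 22 (53.7%) and in 35.7% of all windows. TATAAA was in 6 of the 41 and in 13.6% of all windows, and CACGTG was in 4 of the 41 and in 7.15% of all windows. TGATGNAA, the composite site of ATF4 with a C/EBP partner, was in 1 of the 41, that of Pycr1, against 3.97% of all windows. TGACGTCA, the CREB site, and the palindromic glucocorticoid receptor site were in 0 of the 41, against 1.79% and 0.0578% of all windows. These are matches of letters within 300 bases and not measured sites.

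Among the serine and glycine enzymes, 1 of 8 was called higher in D-ala against vehicle and 1 of 8 in L-ala against vehicle. The shares of all tested genes called higher were 6.53% and 6.48%. In both cases the enzyme was Shmt2. It was at 169, 146, 155, 159 and 162 FPKM in D-ala libraries, 149, 138, 151, 152 and 155 FPKM in L-ala libraries and 129, 139, 122, 116 and 137 FPKM in vehicle libraries. Every D-ala library was above every vehicle library, while L-ala replicate 2 fell just under vehicle replicate 2. Its log2 fold change was 0.30 in D-ala against vehicle (0.18 to 0.42, limma adjusted p = 0.00402), and this call held in all 25 alternatives. It was 0.21 in L-ala against vehicle (0.09 to 0.34, adjusted p = 0.0326) and 0.04 there with quantile normalization (adjusted p = 0.684). The L-ala call was also lost without any 1 of L-ala replicates 1, 3 and 4 or vehicle replicates 1, 3 and 4, at adjusted p of 0.0539 to 0.0969. The cytosolic counterpart Shmt1 averaged 28.5 ± 1.79 FPKM in D-ala, 24.7 ± 2.90 FPKM in L-ala and 25.9 ± 2.10 FPKM in vehicle kidney, and was not called.

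The glycine cleavage system, which splits glycine in mitochondria, is built from Gldc, Amt, Gcsh and a shared dehydrogenase. Between the isomers, Amt was called higher and Gcsh lower in D-ala, and a difference between the parts was not tested. Amt was at 54.2, 49.4, 53.0, 52.4 and 42.9 FPKM in D-ala libraries, against 36.3, 38.5, 32.3, 32.9 and 54.6 FPKM in L-ala libraries. L-ala replicate 5 was the highest of all 15 libraries for Amt and the other 4 L-ala libraries were below all D-ala libraries. The log2 fold change in D-ala against L-ala was 0.38 (0.15 to 0.62, adjusted p = 0.0341), and without L-ala replicate 5 it was 0.51 (adjusted p = 0.000541). The call was lost without any 1 of D-ala replicates 1 to 4 or L-ala replicates 1 to 4, at adjusted p of 0.0541 to 0.0962. Gcsh, the carrier protein of the system, was at 99.5, 99.7, 106, 86.7 and 94.1 FPKM in D-ala libraries, against 119, 107, 122, 137 and 112 FPKM in L-ala libraries. The groups did not overlap, and the log2 fold change was -0.29 (-0.44 to -0.14, adjusted p = 0.0152), a call that held in all 25 alternatives. In vehicle kidney Gcsh averaged 105 ± 6.01 FPKM (SD, n = 5), between the D-ala mean of 97.1 ± 7.08 and the L-ala mean of 119 ± 11.6 FPKM, and neither isomer was called against vehicle. Gldc, the decarboxylase of the system, was the most variable of the 35 tested enzymes in vehicle kidney, and its log2 fold change in D-ala against L-ala was 0.29 (-0.12 to 0.70, adjusted p = 0.325).

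The 3 enzymes of serine synthesis were not called in any comparison. Phgdh averaged 2.41 ± 0.842 FPKM in D-ala, 3.41 ± 0.458 FPKM in L-ala and 2.77 ± 0.462 FPKM in vehicle kidney (SD, n = 5 each). Its log2 fold change in D-ala against L-ala was -0.40 (-0.68 to -0.11, adjusted p = 0.0596), and it was called without D-ala replicate 2 (-0.53, adjusted p = 0.0105) and with the trend in GC content removed (-0.41, adjusted p = 0.0456). The annotation also holds a pseudogene, Phgdh-ps1, with which reads could have been shared. Psat1, the aminotransferase of the second step, averaged 36.4 ± 8.21, 39.1 ± 7.09 and 32.3 ± 5.81 FPKM in D-ala, L-ala and vehicle kidney. Psph, the phosphatase of the last step, averaged 11.4 ± 1.41, 13.4 ± 1.44 and 11.01 ± 1.31 FPKM in the same order. Of 15 other tested serine, glycine and folate genes, 3 were called higher and 0 lower in D-ala against vehicle. The all-gene shares there were 6.53% higher and 4.92% lower. Aldh1l1, which oxidises formyl folate, averaged 293 ± 24.3 FPKM in D-ala and 242 ± 13.3 FPKM in vehicle kidney (0.27, adjusted p = 0.013). Hoga1, of hydroxyproline breakdown, averaged 201 ± 4.87 FPKM in D-ala, 165 ± 16.9 FPKM in L-ala and 169.8 ± 8.42 FPKM in vehicle kidney, and was called in D-ala against vehicle (0.24, adjusted p = 0.0193) and against L-ala (0.29, adjusted p = 0.00926). Under L-ala 2 of the 15 were called higher, against 6.48% of all tested genes. They were the glyoxylate reductase Grhpr (0.31, adjusted p = 0.0126) and the threonine breakdown enzyme Gcat (0.22, adjusted p = 0.0435). Between the isomers 1 of the 15 was called higher and 1, the serine dehydratase homologue Sdsl, lower (-0.34, adjusted p = 0.0224). The all-gene shares there were 7.01% higher and 6.66% lower.

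**Figure D3:**
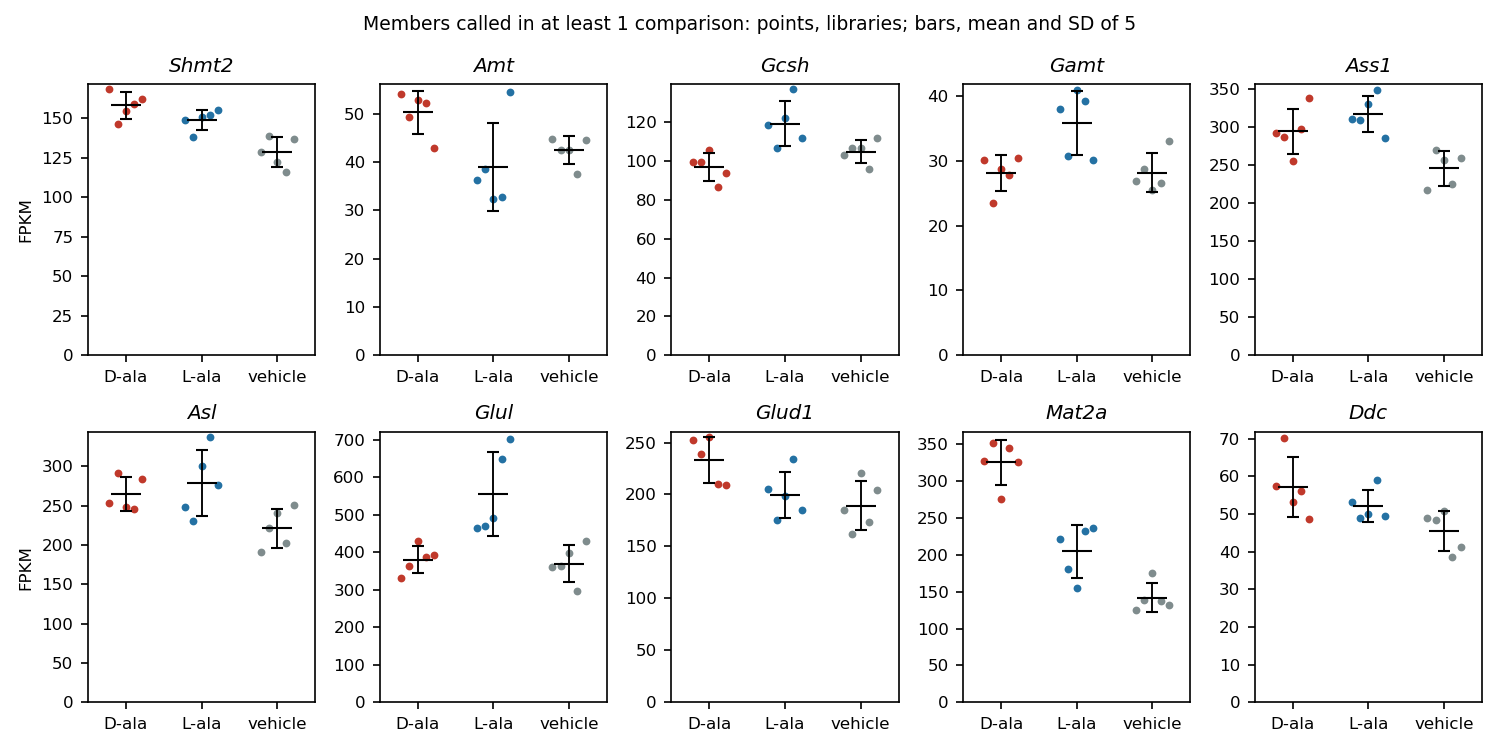
FPKM (linear axis from 0) of the 10 enzymes called in at least 1 comparison, by library (points) in D-ala, L-ala and vehicle kidney, with the group mean and SD (bars, n = 5). D-ala points lie above all others for Mat2a, at 275 to 352 FPKM, and L-ala points lie above all others for Glul, at 466 to 702 FPKM.

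Of the 2 creatine enzymes, Gamt was called in 2 comparisons and Gatm in none, and a difference between them was not tested. Gamt was at 30.1, 23.5, 28.7, 27.9 and 30.4 FPKM in D-ala libraries, 37.99, 30.8, 40.9, 39.2 and 30.1 FPKM in L-ala libraries and 26.9, 28.7, 25.4, 26.6 and 33.1 FPKM in vehicle libraries. L-ala replicates 1, 3 and 4 were above every D-ala and vehicle library and L-ala replicates 2 and 5 were within their range. For Gamt the log2 fold change was -0.33 in D-ala against L-ala (-0.54 to -0.13, limma adjusted p = 0.0319) and 0.33 in L-ala against vehicle (0.13 to 0.54, adjusted p = 0.0376). It was 0.00 in D-ala against vehicle (-0.20 to 0.20). Removing the trend with gene length ended both calls, at -0.19 (adjusted p = 0.106) and 0.18 (adjusted p = 0.143). The first call was also lost without any 1 of D-ala replicates 2, 3 and 4 or L-ala replicates 1, 3 and 4, at adjusted p of 0.0559 to 0.0872. The call against vehicle was lost without any 1 of L-ala replicates 1, 3 and 4 or vehicle replicates 1 to 4, at adjusted p of 0.0622 to 0.103. Gatm averaged 414 ± 68.6 FPKM in D-ala, 475 ± 32.6 FPKM in L-ala and 449 ± 54.5 FPKM in vehicle kidney and its log2 fold change was -0.21 in D-ala against L-ala (-0.44 to 0.01, adjusted p = 0.189).

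Of the 5 enzymes of proline and ornithine in the set, the 3 tested were not called in any comparison. Prodh, which starts proline breakdown, averaged 209.9 ± 23.4 FPKM in D-ala, 202 ± 30.7 FPKM in L-ala and 181 ± 14.5 FPKM in vehicle kidney (SD, n = 5 each). Aldh4a1, the next enzyme, was at 230.4 to 251.7 FPKM in D-ala and 210.1 to 226 FPKM in vehicle libraries, without overlap, but its log2 fold change of 0.14 did not pass (0.01 to 0.27, adjusted p = 0.17). Of its exon bases, 32.5% are shared with the annotated gene Gm21969 on the same strand, so its reads could have been divided. Oat, ornithine aminotransferase, averaged 119 ± 3.68, 116 ± 6.78 and 122 ± 11.004 FPKM in D-ala, L-ala and vehicle kidney, and its 95% interval in D-ala against vehicle was -0.16 to 0.10. Outside the set, Pycrl, a reductase related to Pycr1, was lower in D-ala, at 38.4 ± 1.63 FPKM, than in L-ala, at 48.7 ± 4.92 FPKM (-0.33, adjusted p = 0.00353), and than in vehicle kidney, at 48.0 ± 1.01 FPKM (-0.31, adjusted p = 0.00357).

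Of the 3 arginine enzymes, Ass1 was called higher in D-ala against vehicle, and both Ass1 and Asl in L-ala against vehicle. Ass1, which joins citrulline and aspartate, was at 293, 288, 256, 298 and 339 FPKM in D-ala libraries, 310.4, 309.8, 330.2, 349.9 and 287 FPKM in L-ala libraries and 218, 269.9, 257, 226 and 259 FPKM in vehicle libraries. All L-ala libraries were above all vehicle libraries, while D-ala replicate 3 lay within the vehicle range. The log2 fold change was 0.37 in L-ala against vehicle (0.20 to 0.54, limma adjusted p = 0.0135), a call lost in 1 of 25 alternatives, quantile normalization (0.18, adjusted p = 0.106). In D-ala against vehicle it was 0.26 (0.09 to 0.43, adjusted p = 0.0463), and 17 of 25 alternatives ended that call. Among them, leaving out any 1 of D-ala replicates 1, 2, 4 and 5, L-ala replicates 1 to 3 or vehicle replicates 1, 3, 4 and 5 gave adjusted p of 0.0518 to 0.118.

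Asl, which splits argininosuccinate into arginine, was at 253, 292, 249, 246 and 285 FPKM in D-ala libraries, 249, 231, 301, 337 and 277 FPKM in L-ala libraries and 191, 222, 240.3, 202 and 251 FPKM in vehicle libraries. The 3 groups overlapped. Its log2 fold change was 0.33 in L-ala against vehicle (0.12 to 0.54, limma adjusted p = 0.0447) and 0.26 in D-ala against vehicle (0.05 to 0.47, adjusted p = 0.0966). The L-ala call was lost in 15 of 25 alternatives, with 0.18 and adjusted p = 0.246 when the 3 shallowest libraries were left out. Leaving out any 1 of D-ala replicates 1, 3 and 5, L-ala replicates 1, 3 and 4 or vehicle replicates 1, 2 and 4 also ended it, at adjusted p of 0.051 to 0.122. Proximal tubule S1 and S2 markers were higher in L-ala than in vehicle libraries by 0.17 on the log2 scale, and their part in the Ass1 and Asl values was not tested. Arg2 averaged 7.37 ± 1.66, 5.33 ± 1.12 and 6.25 ± 1.30 FPKM in D-ala, L-ala and vehicle kidney, and its log2 fold change in D-ala against L-ala was 0.40 (0.08 to 0.72, adjusted p = 0.0902). Without D-ala replicate 5 it was 0.50 (adjusted p = 0.0378).

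Of 13 other tested genes of the urea cycle, proline and polyamines, 0 were called higher and 1, Pycrl, lower in D-ala against vehicle by limma, and 4 of the 13 had an unadjusted p under 0.05, against 26.5% of all tested genes. The all-gene shares of calls there were 6.53% higher and 4.92% lower. Under L-ala 2 of the 13 were called higher than in vehicle, against 6.48% of all tested genes. They were spermine synthase Sms (0.24, adjusted p = 0.0339) and the antizyme Oaz1, which sends ornithine decarboxylase to the proteasome (0.41, adjusted p = 0.0499). In D-ala against L-ala 1 of the 13 was called higher and 2 lower, against 7.01% and 6.66% of all tested genes. The higher one was Azin1, an inhibitor of the antizymes, at 36.8 ± 3.23 FPKM in D-ala and 29.7 ± 2.16 FPKM in L-ala kidney (0.30, adjusted p = 0.0135).

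Of the 2 enzymes at the glutamate node, Glul was called in L-ala against vehicle and Glud1 in D-ala against vehicle. Only Glul was also called between the isomers. Glul, which forms glutamine from glutamate and ammonia, was at 331, 365, 429.6, 389 and 391.9 FPKM in D-ala libraries, 466, 470.3, 491, 649 and 702 FPKM in L-ala libraries and 362, 364, 399, 298 and 429.8 FPKM in vehicle libraries. All L-ala libraries were above all others, and the D-ala and vehicle libraries overlapped. For Glul the log2 fold change was -0.53 in D-ala against L-ala (-0.78 to -0.27, limma adjusted p = 0.0136), 0.57 in L-ala against vehicle (0.31 to 0.83, adjusted p = 0.0126) and 0.05 in D-ala against vehicle (-0.21 to 0.30). The calls were lost with quantile normalization, at -0.38 (adjusted p = 0.052) and 0.36 (adjusted p = 0.0838), and with the 3 shallowest libraries left out, at -0.32 (adjusted p = 0.0564) and 0.36 (adjusted p = 0.0562). L-ala replicates 4 and 5, the 2 highest for Glul, are among those 3 libraries. Neutrophil and red blood cell markers were also higher in L-ala libraries, and their part in the Glul values was not tested.

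Glud1, the mitochondrial glutamate dehydrogenase, was at 252.4, 239, 255, 209.9 and 209 FPKM in D-ala libraries, 205, 175, 199, 234 and 185 FPKM in L-ala libraries and 185, 162, 221, 174 and 204 FPKM in vehicle libraries. D-ala replicates 1, 2 and 3 were above every L-ala and vehicle library, and D-ala replicates 4 and 5 were within the vehicle range. For Glud1 the log2 fold change was 0.30 in D-ala against vehicle (0.11 to 0.50, limma adjusted p = 0.0458), a call lost in 13 of 25 alternatives. Leaving out any 1 of D-ala replicates 1 to 3, L-ala replicates 1 and 3 or vehicle replicates 1, 2 and 4 gave adjusted p of 0.0524 to 0.114. Against L-ala it was 0.22 (0.03 to 0.42, adjusted p = 0.117), and with quantile normalization 0.31 (adjusted p = 0.0267). For L-ala against vehicle it was 0.08 (-0.12 to 0.28).

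Of 16 other tested genes of alanine, glutamate, aspartate and asparagine, 2 were called higher and 0 lower in D-ala against vehicle, and 1 higher and 0 lower in L-ala against vehicle. The all-gene shares were 6.53% higher and 4.92% lower for D-ala, and 6.48% and 4.53% for L-ala. Gpt averaged 29.9 ± 5.41 FPKM in D-ala, 23.9 ± 4.91 FPKM in L-ala and 20.2 ± 1.59 FPKM in vehicle kidney, and was called in D-ala against vehicle (0.53, adjusted p = 0.0134) and not in D-ala against L-ala (0.32, adjusted p = 0.103). Got1, the cytosolic aspartate aminotransferase, was called in D-ala against vehicle (0.29, adjusted p = 0.0439) and in L-ala against vehicle (0.34, adjusted p = 0.0272). Dao averaged 261 ± 20.1 FPKM in D-ala, 266 ± 17.1 FPKM in L-ala and 228 ± 21.1 FPKM in vehicle kidney and was not called, at adjusted p of 0.0982 and 0.0566 against vehicle.

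None of the 4 tyrosine breakdown enzymes was called by limma in any of the 3 comparisons, and 1, 2 and 1 of them had an unadjusted p under 0.05 in the D-ala and L-ala comparisons with vehicle and in that between the isomers. Over all tested genes the shares at that threshold were 26.5%, 30.5% and 30.8%. Fah, which makes the last cut to fumarate and acetoacetate, averaged 449 ± 29.3 FPKM in D-ala, 435 ± 31.9 FPKM in L-ala and 391 ± 25.2 FPKM in vehicle kidney. Its log2 fold change in D-ala against vehicle was 0.20 (0.06 to 0.34, adjusted p = 0.058), and it was called with the length trend removed (0.19, adjusted p = 0.0325) and without D-ala replicate 2 (0.24, adjusted p = 0.0344). Hgd, which opens the homogentisate ring, was at 412 to 484 FPKM in L-ala and 359 to 399.5 FPKM in vehicle libraries, without overlap (0.18, adjusted p = 0.0595, and 0.0497 without L-ala replicate 5). Gstz1, the isomerase between these steps, had the lowest coefficient of variation of the 37 in D-ala and vehicle kidney but not in L-ala kidney, at 309 ± 5.26, 333 ± 17.9 and 322 ± 5.78 FPKM in D-ala, L-ala and vehicle kidney. Without L-ala replicate 5 its log2 fold change of -0.14 in D-ala against L-ala was called (adjusted p = 0.0243). Hpd, the dioxygenase that precedes Hgd, ranged from 63.1 to 169 FPKM over the 15 libraries, and its 95% interval in D-ala against vehicle, -0.60 to 0.45, leaves a change of either sign undecided.

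Of 16 other tested genes of tyrosine, phenylalanine and tryptophan, 1 was called higher and 0 lower in D-ala against vehicle, against 6.53% and 4.92% of all tested genes. It was the kynurenine hydroxylase Kmo, at 95.5 ± 4.11 FPKM in D-ala and 84.1 ± 4.06 FPKM in vehicle kidney (0.18, adjusted p = 0.0319). Under L-ala 3 of the 16 were called higher and 1 lower than in vehicle, with Kmo among the higher ones (0.20, adjusted p = 0.0259). The all-gene shares there were 6.48% higher and 4.53% lower. Qdpr and Pcbd1 recycle the biopterin cofactor of phenylalanine hydroxylase. Qdpr averaged 351 ± 11.8 FPKM in D-ala, 410.2 ± 28.04 FPKM in L-ala and 339 ± 23.3 FPKM in vehicle kidney, and was called in L-ala against vehicle (0.28, adjusted p = 0.0135) and in D-ala against L-ala (-0.22, adjusted p = 0.025). Pcbd1 averaged 523 ± 29.4 FPKM in D-ala and 655 ± 96.1 FPKM in L-ala kidney (-0.31, adjusted p = 0.0407).

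The 8 branched-chain enzymes were not called in any comparison by limma, and 1, 2 and 2 of them had an unadjusted p under 0.05 in the D-ala and L-ala comparisons with vehicle and in that between the isomers, where the all-gene shares were 26.5%, 30.5% and 30.8%. Their median log2 fold changes were 0.02, 0.04 and -0.04. Bcat2, the mitochondrial aminotransferase that removes the amino group, was at 57.7, 58.7, 57.2, 61.0 and 55.9 FPKM in D-ala libraries and 61.9, 67.8, 66.1, 65.4 and 71.3 FPKM in vehicle libraries. These did not overlap, and the log2 fold change of -0.19 (-0.35 to -0.03) had an adjusted p of 0.107. It was called lower in 5 of 25 alternatives, among them without L-ala replicate 5 (adjusted p = 0.038), which is in neither of these groups but enters the shared spread. Bckdha and Bckdhb are the subunits of the decarboxylase that commits branched-chain keto acids to breakdown. Bckdha averaged 334 ± 11.8, 362 ± 19.4 and 327 ± 13.6 FPKM in D-ala, L-ala and vehicle kidney, and Bckdhb 35.9 ± 4.38, 40.8 ± 3.48 and 35.3 ± 2.19 FPKM. Without L-ala replicate 5 Bckdha was called in L-ala against vehicle (0.18, adjusted p = 0.0179) and in D-ala against L-ala (-0.15, adjusted p = 0.0389). Of the exon bases of Bckdha, 61.7% are shared with B3gnt8 on the opposite strand, so its reads may include that gene.

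Further down the branched-chain pathway the values stayed close. Ivd, which acts on the leucine chain, averaged 268 ± 32.2 FPKM in D-ala, 259.8 ± 20.3 FPKM in L-ala and 263 ± 13.7 FPKM in vehicle kidney. The biotin-dependent carboxylase subunits Mccc1 and Mccc2 averaged 89.2 ± 5.97 and 75.1 ± 4.46 FPKM in D-ala, 92.0 ± 7.10 and 75.0 ± 4.23 FPKM in L-ala and 90.1 ± 2.36 and 72.6 ± 2.94 FPKM in vehicle kidney. For propionyl-CoA carboxylase, Pcca averaged 79.3 ± 5.81, 73.4 ± 7.06 and 74.7 ± 2.04 FPKM and Pccb 200.1 ± 7.83, 205 ± 15.7 and 193 ± 6.11 FPKM in D-ala, L-ala and vehicle kidney. For Mccc2 the 95% interval in D-ala against vehicle was -0.07 to 0.16, and for Pccb it was -0.07 to 0.17. Of 20 other tested branched-chain genes, 0 were called in D-ala against vehicle by limma, with 2 at an unadjusted p under 0.05, against 26.5% of all tested genes. The L-ala comparison with vehicle called 2 of the 20 higher, against 6.48% of all tested genes. They were the leucine hydratase Auh (0.20, adjusted p = 0.0425) and Mmaa, which loads cobalamin onto methylmalonyl-CoA mutase (0.23, adjusted p = 0.0485). Between the isomers 1 of the 20 was called lower in D-ala, against 6.66% of all tested genes. It was the ketone body enzyme Oxct1, at 523 ± 33.4 FPKM in D-ala and 631 ± 38.6 FPKM in L-ala kidney (-0.27, adjusted p = 0.0116).

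The 2 remaining enzymes are Ddc and Agxt2. Ddc, the aromatic amino acid decarboxylase that forms dopamine in the proximal tubule, was at 57.5, 70.3, 53.3, 56.0 and 48.8 FPKM in D-ala libraries, 53.2, 48.9, 50.02, 59.2 and 49.6 FPKM in L-ala libraries and 49.0, 48.3, 50.7, 38.7 and 41.2 FPKM in vehicle libraries. D-ala replicate 5 lay within the vehicle range and the other 4 D-ala libraries lay above it. For Ddc the log2 fold change was 0.32 in D-ala against vehicle (0.12 to 0.52, limma adjusted p = 0.0379) and 0.20 in L-ala against vehicle (adjusted p = 0.168). The D-ala call was lost without any 1 of D-ala replicates 1, 2 and 4 or vehicle replicates 4 and 5, at adjusted p of 0.0554 to 0.106. The difference between the isomers was 0.12 (-0.08 to 0.32). Agxt2, a mitochondrial aminotransferase that passes the amino group of alanine to glyoxylate, averaged 71.7 ± 7.20 FPKM in D-ala, 68.8 ± 4.51 FPKM in L-ala and 68.8 ± 6.56 FPKM in vehicle kidney, with an interval of -0.11 to 0.22 in D-ala against vehicle. Of 7 other tested lysine and histidine genes, 2 were called higher in D-ala against vehicle, against 6.53% of all tested genes. They were Ftcd (0.28, adjusted p = 0.0276) and the histamine-forming decarboxylase Hdc, at 2.05 ± 0.841 FPKM in D-ala and 0.902 ± 0.479 FPKM in vehicle kidney (0.67, adjusted p = 0.0307). In D-ala against L-ala 3 of the 7 were called higher, against 7.01% of all tested genes. Among them were Hdc (0.73, adjusted p = 0.0202) and Uroc1, the urocanate hydratase, at 17.1 ± 1.37 FPKM in D-ala and 11.3 ± 2.24 FPKM in L-ala kidney (0.57, adjusted p = 0.00722). Of these 7, limma called 0 in L-ala against vehicle, and 0 had an unadjusted p under 0.05 there, against 30.5% of all tested genes.

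Across libraries the members did not form 1 block. Mat2a was the most raised of the 35 enzymes, relative to the vehicle mean, in all 5 D-ala libraries, at 0.96 to 1.32 on the log2 scale. In the L-ala libraries the most raised was Mat2a in replicates 1 and 2, Gamt in replicate 3 and Glul in replicates 4 and 5. The median deviation of the 35 from the vehicle mean was between -0.01 and 0.15 in D-ala libraries, 0.04 and 0.16 in L-ala libraries and -0.08 and 0.07 in vehicle libraries, so these ranges overlapped. D-ala replicate 2 had 16 of 35 enzymes above the vehicle mean and the other D-ala libraries had 24 to 29. The summed level of the 37 enzymes was 5652 to 5924 FPKM in D-ala, 5566 to 6411 FPKM in L-ala and 4955 to 5536 FPKM in vehicle libraries. As a share of all FPKM it was 0.818% to 0.874%, 0.742% to 0.868% and 0.762% to 0.828% in D-ala, L-ala and vehicle libraries. The summed FPKM over all genes was 668770 to 713326 in D-ala, 695096 to 843908 in L-ala and 631008 to 692199 in vehicle libraries, and its part in the L-ala values was not tested.

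**Figure D4:**
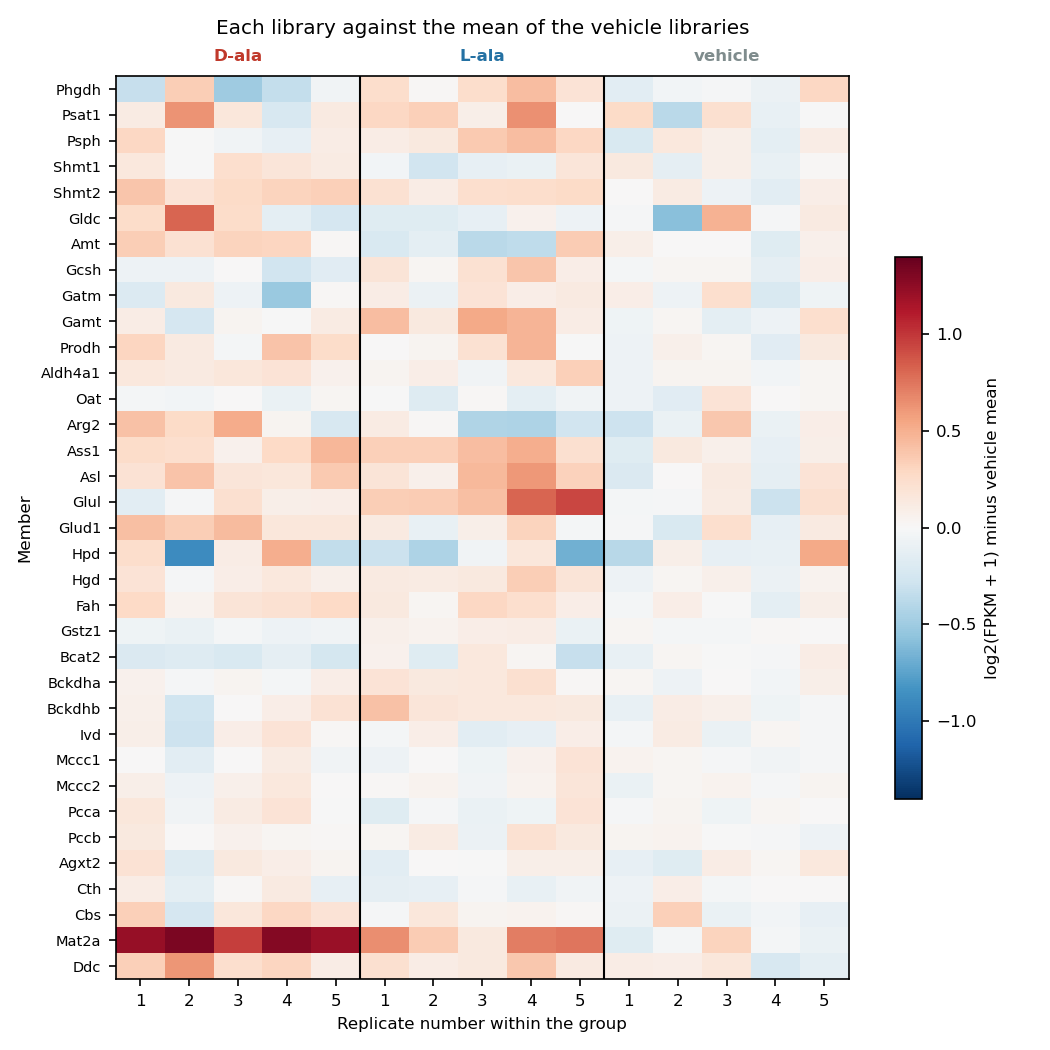
log2(FPKM + 1) minus the vehicle mean (colour, red above and blue below) for the 35 tested enzymes (rows) in the D-ala, L-ala and vehicle libraries (columns). Mat2a is the reddest row in the D-ala block, at 0.96 to 1.32, and Glul in L-ala replicates 4 and 5, at 0.82 and 0.93.

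The precision set what could be seen. The 95% intervals of the log2 fold changes had half-widths of 0.10 to 0.52 with a median of 0.17 over the 35 enzymes. They are not adjusted for the number of genes tested, so a call needed a change larger than the half-width. In D-ala against vehicle, Fah at 0.20 and Bcat2 at -0.19 were not called (limma adjusted p = 0.058 and 0.107). Of the 106 other amino acid genes tested, 11 (10.4%) were called higher and 1 (0.943%) lower in D-ala against vehicle. The all-gene shares there were 6.53% and 4.92%. In L-ala against vehicle 12 (11.3%) were called higher and 2 (1.89%) lower, against 6.48% and 4.53% of all tested genes. In D-ala against L-ala 8 (7.55%) were called higher and 6 (5.66%) lower, against 7.01% and 6.66% of all tested genes. The all-gene shares are not matched to these genes for level.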

How the data were processed

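Kidney RNA was extracted with TRIzol and made into stranded mRNA libraries, per the labels' protocols. The submitters' processing notes list the mm10 build and, with no roles, SAMtools 0.1.19, Bowtie2 2.2.3 and TopHat2 2.0.13. For the program behind the gene values, the annotation and the use of strand in counting, nothing is stated: not given in the sources used here. The authors deposited FPKM values per gene and library. The deposited count column is rescaled and was treated as a score, used only for relative depth and gene length: 88.7% of 1746 low values gave whole reads within 0.1 after rescaling, and depth came to 7.53 to 10.95 M reads per library.

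From these, log2(FPKM + 1) was fitted in limma 3.58.1 (R 4.3.3) over all 15 libraries with 1 mean per group and a trended, robust variance. The scale understates the change of low genes. Of the 23284 genes, 11781 at 1 FPKM or more in at least 5 libraries were tested and 11503 were not. P-values are two-sided and Benjamini-Hochberg adjusted over the genes tested, within each of 3 comparisons. Marker lists were compared by an exact permutation test over libraries, on the mean log2(FPKM + 1) of a list in each library. These exact p-values are not adjusted for the number of lists and comparisons. Python 3.11.15 with numpy 2.4.6, pandas 2.3.3 and matplotlib 3.10.9 was used for the rest. The fit was tested on simulated data. The 25 alternatives changed scaling, pseudocount, filter, variance model, samples, or trends in GC content and gene length, or left out libraries. Named other genes are Gpt, Dao and up to 2 called genes per list and comparison with the smallest adjusted p. A gene that this rule names is not reported here. Mat2b and the 4 short promoter elements were added after their values were seen. The enzymes and lists were chosen with earlier results of these data known. Replicate numbers follow accession order and pair no samples.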

Additional observations from a re-analysis of the deposited data

Results flagged for a closer look

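In 6 of 105 groups of 5 libraries, 1 library lay far from the other 4 by Dixon's criterion, where chance gives about 1 in 20 groups. Phgdh was at 3.57 FPKM in vehicle replicate 5 and 2.39 to 2.70 FPKM in the other vehicle libraries. Cbs was at 143 FPKM in vehicle replicate 2, against 104 to 110.0 FPKM in the others. Mat2a was at 175 FPKM in vehicle replicate 3, against 125 to 138 FPKM in the others. Amt was at 54.6 FPKM in L-ala replicate 5, against 32.3 to 38.5 FPKM in the others, Hgd at 484 FPKM in L-ala replicate 4, against 412 to 431 FPKM, and Bckdhb at 46.99 FPKM in L-ala replicate 1, against 38.9 to 39.8 FPKM.

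For 5 of 35 enzymes, 2 higher and 3 lower, D-ala against L-ala was called in limma. Of all tested genes, 7.01% were called higher and 6.66% lower there. That comparison is the difference between the 2 effects against the shared vehicle libraries. The calls of Amt and Gamt were each lost in 10 of 25 alternatives. The log2 difference was 0.68 for Mat2a, 0.38 for Amt, -0.29 for Gcsh, -0.33 for Gamt and -0.53 for Glul.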

How the results depend on the processing

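For the 34 pairs of an enzyme and a comparison that were called in at least 1 setting, 719 of 849 values under the alternatives kept their direction and side of the threshold, 100 lost a call, 27 gained 1 and 3 changed sign. Some of these pairs were called only under an alternative, and for them keeping a side mostly means staying uncalled. Among pairs called without any alternative, the number of 25 alternatives that ended the call ran from 0 to 17. With quantile normalization, which gives all libraries the same distribution, the sign changed for uncalled Hgd (-0.026) and Bckdha (-0.038) in L-ala against vehicle and for Bckdha in D-ala against L-ala (0.0026). In D-ala against vehicle, enzymes called higher (5) were 3 with quantile normalization, without trend and robust moderation or with the GC trend removed, 2 with no filter on low values, and 2 to 6 leaving out each library. Those called lower (0) were 3 with quantile normalization, 1 with only the 2 groups compared, the length trend removed or the 3 libraries of lowest depth left out, and 0 to 1 leaving out each library. In L-ala against vehicle, those higher (6) were 0 with quantile normalization, 3 with only the 2 groups, 1 without the 3 libraries of lowest depth and 3 to 8 leaving out each library. Those lower (0) were 2 with quantile normalization and 0 to 1 leaving out each library. In D-ala against L-ala, those higher (2) were 1 with no filter or only the 2 groups and 1 to 4 leaving out each library, and those lower (3) were 1 with quantile normalization and 2 to 6 leaving out each library. Of the other amino acid genes in D-ala against vehicle, those higher (11) were 5 with quantile normalization and 4 to 13 leaving out each library, and those lower (1) were 3 with quantile normalization. In L-ala against vehicle, those higher (12) were 1 with quantile normalization, 7 with no filter, 3 with only the 2 groups, 6 without the 3 libraries of lowest depth and 3 to 18 leaving out each library. Those lower (2) were 4 with quantile normalization, 1 with no filter, without trend and robust moderation, with only the 2 groups, with the length trend removed or without the 3 libraries of lowest depth, and 0 to 3 leaving out each library. In D-ala against L-ala, those lower (6) were 3 with quantile normalization and 2 to 15 leaving out each library. The cause of these shifts was not tested. No paired analysis was possible because the labels carry no replicate numbers.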
